A study of Homo sapiens with 6 samples.

Results

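The 9 genes described here encode ligands and receptors of the interleukin-1 (IL-1) family: IL1A, IL1B, IL18, IL33 and IL1RN among the ligands, and IL1R1, IL1RAP, IL1R2 and IL1RL1 among the receptors. They were taken by gene symbol from a deposited table of 54308 genes, which lists all 9. RNA-seq had been performed on 143B cells, a human osteosarcoma (OS) line, in 3 vector control (VC) and 3 CNTNAP4 knockout (KO) libraries. CNTNAP4 encodes a transmembrane protein of the neurexin superfamily. VC cells had received a negative control plasmid and KO cells a CRISPR/Cas9 plasmid against CNTNAP4, and the labels give 48 h of transfection for both. The paper's methods give a longer transfection before single cells were sorted, and the difference is not explained. RNA came from clonal cells, grown from single sorted cells, and the labels do not say which clone each library came from. CNTNAP4 loss and differences between clones therefore cannot be told apart. The genes had been chosen with their KO and VC values known, so those values are given as a description and without a test.

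IL-1α (IL1A) and IL-1β (IL1B) are proinflammatory cytokines that bind the same receptor, IL1R1, which signals once the accessory protein IL1RAP joins it. The antagonist IL1RN occupies IL1R1 without signaling, and IL1R2 is a decoy that binds IL-1 but cannot signal. IL-18 signals through IL18R1 and IL18RAP, and IL-33 through IL1RL1 (also called ST2) together with IL1RAP. These cytokines are best known from myeloid cells, epithelium and stroma, and neither protein nor secretion was measured here.

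The deposited values are log2 signals that had been quantile-normalized between libraries, so each library spans -10.87 to 12.04 with a median of 0.62. Between 20333 and 21041 genes had a value in a library, and an empty cell marks a gene without one. The linear unit is not given in the sources used here and the number of reads is unknown, so levels are compared between libraries and not between genes. The exception is the summed signals of marker lists, which add genes in this unknown unit. For CNTNAP4 the table holds a single value, -7.18 in VC replicate 3. On the first principal component, which held 63.5% of the variance, the VC libraries scored between -48.4 and -46.7 and the KO libraries between 20.8 (replicate 1) and 73.8 (replicate 2). At the lower end of the table a gene can have a value in one library and an empty cell in the next, which was the case for 4 of the 9 genes.

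IL1B and IL1A, the agonist ligands of IL1R1, were far higher in every KO library than in any VC library. IL1B had log2 signals of -1.65, -2.36 and -1.72 in VC (replicates 1, 2 and 3, the order used throughout) and of 3.19, 4.20 and 3.63 in KO. The lowest KO library lay 4.85 log2 units above the highest VC library. KO averaged 3.67 ± 0.50 and VC -1.91 ± 0.39 (SD, n = 3 each), a log2 difference of 5.58 or a linear ratio of 47.9. With 1 added to the linear signal, which shrinks differences between low values, the log2 difference was 3.44 for IL1B and 0.50 for IL18. IL1A had log2 signals of -0.26, -0.62 and -0.20 in VC and of 3.69, 4.71 and 4.05 in KO. The groups were 3.89 log2 units apart at their nearest libraries. KO averaged 4.15 ± 0.52 and VC -0.36 ± 0.23 (SD, n = 3 each), a log2 difference of 4.51 or a linear ratio of 22.8. In bulk RNA, more transcript per cell and more cells carrying the transcript cannot be told apart.

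IL1A and IL1B ranked the libraries alike within KO. VC replicate 2 was the lowest VC library for both, and KO replicate 2 was the highest KO library for both, followed by KO replicates 3 and 1. The difference between the pair within a library, IL1A minus IL1B, was 1.39, 1.74 and 1.52 log2 units in VC and 0.49, 0.51 and 0.43 in KO. KO averaged 0.48 ± 0.044 and VC 1.55 ± 0.17 (SD, n = 3 each), and all 3 KO values lay below all 3 VC values. A scaling of whole libraries cancels in this difference, but quantile normalization is not such a scaling. What it contributes to the difference was not tested. The contrast between the groups was not kept with an offset: with 1 added to the linear signal, an alternative chosen after the data were seen, the difference was 0.45 ± 0.045 in KO and 0.49 ± 0.030 in VC (SD, n = 3 each), and the groups overlapped.

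IL1A and IL1B lie side by side on chromosome 2 and are read from the same strand. The 250 bases before their start sites are shown because both genes were higher together and promoters are where transcription factors of inflammation bind. They come from RefSeq on build GRCh38.p14, whose promoter table held 8 of the 9 genes (not IL18). Both are on the minus strand and written 5′ to 3′, with the last base next to the start site, at chr2:112784494-112784743 for the first of 2 listed IL1A starts and at chr2:112836780-112837029 for IL1B. Capitals mark every match to 4 motifs searched on both strands: the NF-kB motif, AP-1 (TGANTCA), C/EBP (TTGCNNAA) and a TATA box (TATAAA).
IL1A: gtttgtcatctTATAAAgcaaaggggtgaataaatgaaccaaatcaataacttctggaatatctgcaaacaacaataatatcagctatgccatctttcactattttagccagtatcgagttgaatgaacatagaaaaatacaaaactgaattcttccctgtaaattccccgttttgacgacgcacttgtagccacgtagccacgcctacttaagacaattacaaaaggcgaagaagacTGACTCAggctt
IL1B: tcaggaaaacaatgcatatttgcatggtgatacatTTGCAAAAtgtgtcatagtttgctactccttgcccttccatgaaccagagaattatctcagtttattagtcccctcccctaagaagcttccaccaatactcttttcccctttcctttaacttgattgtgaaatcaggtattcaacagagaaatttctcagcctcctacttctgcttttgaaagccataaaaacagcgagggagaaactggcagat
The IL1A stretch holds an AP-1 match, TGACTCA, at bases -12 to -6 before the start, and a TATA box match at -239 to -234. Before the second IL1A start, 2 AP-1 matches lie at -105 to -99 and -55 to -49, the first of them being the one already shown. The IL1B stretch holds a C/EBP match, TTGCAAAA, at -215 to -208 and no match to the other motifs. AP-1 matches occur in 6.57% of 35116 promoter windows of this length, C/EBP matches in 9.05%, TATA box matches in 10.7% and NF-kB matches in 5.21%. A match describes the letters and does not show that a factor binds there.

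IL18, an inflammasome-processed cytokine, had log2 signals of -1.08, -1.75 and -1.16 in VC and of -0.10, -0.02 and 0.03 in KO. Every KO library was above every VC library, with 0.97 log2 units between the nearest of them, and the KO libraries lay close together. KO averaged -0.03 ± 0.069 and VC -1.33 ± 0.37 (SD, n = 3 each), a log2 difference of 1.30 or a linear ratio of 2.46. IL33, an alarmin held in the nucleus, had values in 4 libraries. These were -6.00 in VC replicate 1, -7.68 in VC replicate 3, -6.66 in KO replicate 2 and -7.63 in KO replicate 3. The groups overlapped, the mean log2 difference was -0.31, and its sign turned to 0.53 without VC replicate 1 and to 0.17 without KO replicate 3. The antagonist IL1RN had a value of -7.19 and -7.11 in VC replicates 1 and 2 and of -7.22 in KO replicate 3. The only KO value lay just below the VC values, and 3 of the 6 libraries gave no value at all. The groups are therefore not compared for IL1RN.

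**Figure D1:**
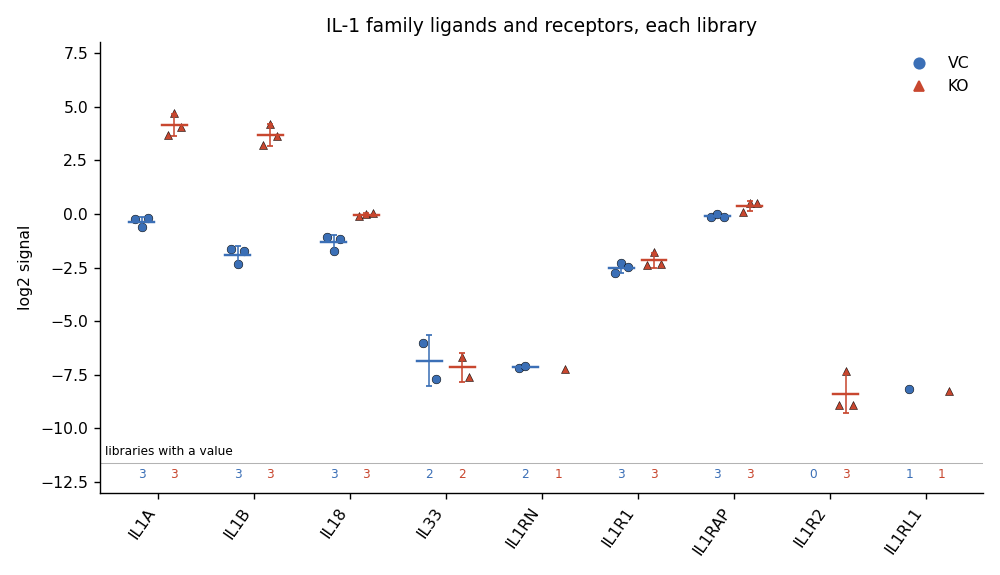
Log2 signal of the 9 IL-1 family genes (ligands and antagonist on the left, receptors on the right) in each VC (circles) and KO (triangles) library, with the group mean and SD (bars) and, along the base, the number of libraries with a value. IL1A and IL1B stand 4.51 and 5.58 log2 units higher in KO, while IL33, IL1RN, IL1R2 and IL1RL1 sit at the lower end with empty cells.

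The receptor chains shared by IL-1α and IL-1β had smaller mean differences. The accessory chain IL1RAP had log2 signals of -0.12, -0.03 and -0.15 in VC and of 0.09, 0.51 and 0.53 in KO. All KO libraries were above all VC libraries, by 0.12 log2 units between the nearest, and the mean log2 difference was 0.48 (-0.10 ± 0.064 in VC and 0.38 ± 0.25 in KO, SD, n = 3). The signaling receptor IL1R1 had log2 signals of -2.75, -2.31 and -2.49 in VC and of -2.39, -1.78 and -2.33 in KO. VC replicate 2 was higher than KO replicates 1 and 3, so the groups overlapped. KO averaged -2.17 ± 0.34 and VC -2.52 ± 0.22 (SD, n = 3 each), a log2 difference of 0.35.

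The decoy receptor IL1R2 had no value in any VC library and values of -8.91, -7.32 and -8.92 in the KO libraries. It was listed in KO alone, but so near the lower end of the table that no ratio is given. The IL-33 receptor IL1RL1 had a value of -8.17 in VC replicate 2 and of -8.24 in KO replicate 3 and none in the other libraries. Of the 5 genes with 6 values, 4 (IL1A, IL1B, IL18 and IL1RAP) had all KO libraries above all VC libraries and 1 (IL1R1) overlapped. All KO libraries were above all VC libraries in 22.6% of the 17698 genes of the table with 6 values and below them in 36.7%, together 59.3%, and since these genes were chosen on this contrast nothing is read from the count.

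IL1A, IL1B and IL1RN sit in the IL-1 ligand run of chromosome 2, and IL1R2, IL1R1 and IL1RL1 in a separate receptor run on the same chromosome. IL1RAP lies on chromosome 3, IL33 on 9 and IL18 on 11. In the ligand run, 5 of the 14 listed genes from IL1A to IL1RN had a value in any library. IL37, which dampens inflammation, had log2 signals of -4.65, -4.57 and -7.53 in VC and of -4.20, -4.09 and -4.50 in KO (log2 difference 1.32, standard error 0.85, adjusted p = 0.272). VC replicate 3 was low and the other VC libraries were near the KO libraries. IL36G, an epithelial IL-36 agonist, had -5.04 and -3.96 in VC replicates 1 and 2, no value in VC replicate 3, and -3.49, -3.18 and -2.77 in KO (log2 difference 1.35, standard error 0.41, adjusted p = 0.0662). IL36A, IL36B, IL36RN and IL1F10 had no value in any library. Outside the run, the nearest genes with 6 values were CKAP2L, a mitotic spindle gene, with a log2 difference of 0.34 (adjusted p = 0.0811), and PSD4, which rose by 0.70 (adjusted p = 0.0331). Beside the log2 differences of 4.51 and 5.58 for IL1A and IL1B, those of IL37, IL36G and the neighbours thus lay between 0.34 and 1.35.

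In the receptor run, 5 of 8 listed genes from IL1R2 to IL18RAP had a value. IL18R1, the binding chain of the IL-18 receptor, averaged -0.47 ± 0.17 in KO and -0.42 ± 0.083 in VC (SD, n = 3 each) (log2 difference -0.046, adjusted p = 0.773). IL18RAP, its signaling partner, had values of -7.36 and -7.51 in VC replicates 2 and 3 and of -7.51, -8.47 and -7.45 in KO (log2 difference -0.38, adjusted p = 0.458). IL1RL2, the IL-36 receptor, had no value in any library. The kinase gene MAP4K4, before the run, rose by 0.60 (adjusted p = 0.0116), and the sodium/proton exchanger gene SLC9A2, after it, had a log2 difference of -1.13 (adjusted p = 0.151).

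**Figure D2:**
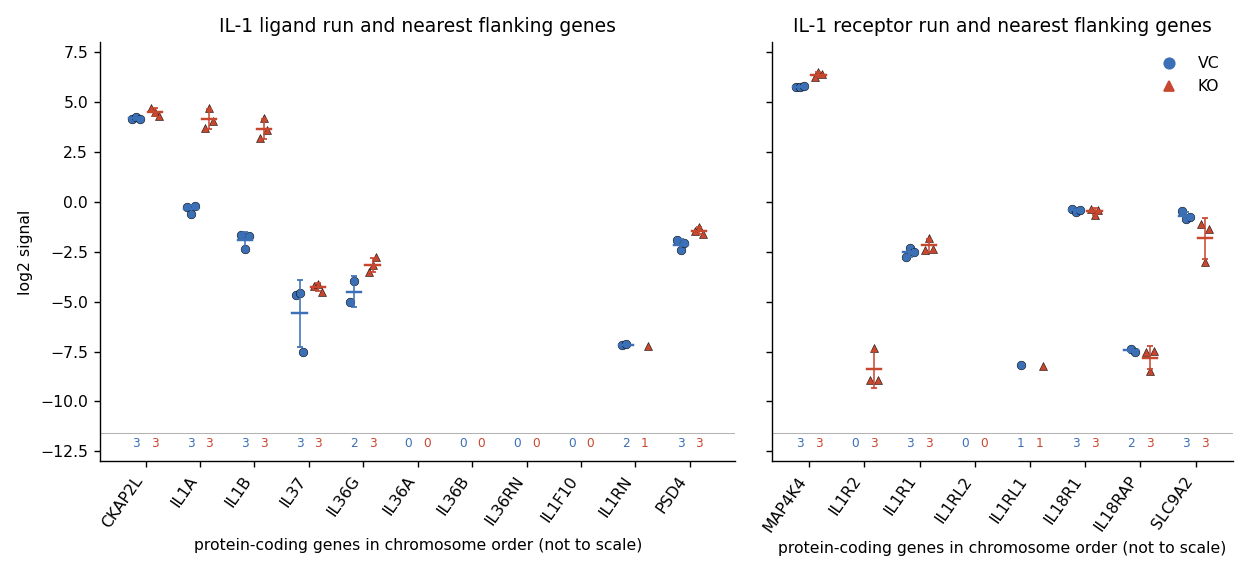
Log2 signal of the protein-coding genes of the IL-1 ligand run (left) and the IL-1 receptor run (right) of chromosome 2, in chromosome order and not to scale, with the nearest flanking gene that had 6 values on each side; circles are VC and triangles KO libraries, bars the mean and SD, and the numbers along the base the libraries with a value. VC and KO are 4.51 and 5.58 log2 units apart for IL1A and IL1B, and the means of the other genes plotted with 2 values in each group differ by -1.13 to 1.35.

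The other 13 IL-1 family genes comprise the IL-36 cytokines, IL37, the IL-18 receptor and binding protein, and the remaining receptors. Of these, 7 could be tested and 1 passed the test, where 32.9% of all 19306 genes tested had an adjusted p under 0.05 (13.1% higher and 19.8% lower in KO). IL18BP, the secreted antagonist of IL-18, had log2 signals of -0.19, -0.43 and -0.01 in VC and of -0.76, -1.78 and -1.16 in KO. Every KO library was below every VC library. IL18BP fell by 1.03 (standard error 0.28, adjusted p = 0.0442), but stayed under 0.05 in only 1 of 6 refits with a library dropped (the others gave 0.112, 0.0817 and 0.121 when VC replicate 1, 2 or 3 was dropped and 0.0559 and 0.101 when KO replicate 2 or 3 was dropped). SIGIRR, an inhibitory receptor of the family, had a log2 difference of 0.24 (adjusted p = 0.179). IL1RAPL1, a synaptic member, had -1.13 (adjusted p = 0.155). Its relative IL1RAPL2 had values of -4.96, -5.05 and -5.02 in VC and a single value of -8.16 in KO, in replicate 2, and was not tested. The median log2 difference of the 7 genes tested was -0.046, against -0.13 for all genes tested.

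Downstream of the receptor, MYD88 and the IRAK kinases assemble and activate TRAF6, which leads to NF-kB and MAP kinases. All 22 genes of the list of IL-1 receptor signaling were tested, and 5 rose, 2 fell and 15 did not pass the test. The share called, 31.8%, was near the 32.9% of all genes tested. The largest change was that of IRAK2, a kinase of this complex that is itself inducible, with log2 signals of -0.01, -0.08 and 0.02 in VC and of 2.87, 3.37 and 2.56 in KO. The groups were well apart, and IRAK2 rose by 2.95 (standard error 0.21, adjusted p = 0.00571). IRAK3, an inhibitory member of the same kinase family, had 0.26, 0.17 and 0.40 in VC and -0.56, -1.18 and -0.92 in KO. It fell by 1.16 (standard error 0.18, adjusted p = 0.0132), with an adjusted p of 0.0508 without VC replicate 1 and 0.0534 without VC replicate 3. SQSTM1 (p62), a TRAF6-binding scaffold and autophagy receptor, rose by 1.02 (adjusted p = 0.00789).

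MYD88 and the kinases that recruit TRAF6 otherwise did not pass the test. The log2 difference was -0.22 for MYD88 (adjusted p = 0.2), -0.25 for IRAK1 (adjusted p = 0.117), 0.23 for IRAK4 (adjusted p = 0.0876), -0.07 for TRAF6 (adjusted p = 0.524) and -0.0165 for the inhibitor TOLLIP (adjusted p = 0.912). PELI1, an E3 ligase that acts on IRAKs, rose by 0.67 (adjusted p = 0.0106). TAB1 (0.36), ECSIT (0.44) and UBE2V1 (-0.50) were the other genes called, as log2 differences. The list's median was 0.013, and its number of calls was 3 without VC replicate 1 and 3 without VC replicate 3. Over all genes tested, 1403 of 18610 and 1223 of 18626 were called in these refits, and 6354 of 19306 with all libraries. At an unadjusted p under 0.05 limma gave 10 and 8 of the list's genes in these refits, and 12 with all libraries. IRAK2, PELI1 and SQSTM1 had an adjusted p under 0.05 with each library left out.

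IL-1β and IL-18 are made as inactive precursors that caspase-1 cleaves within inflammasomes, and IL-1α can be cleaved by calpain. Of 24 genes of processing and release, 16 were tested, of which 5 rose, 1 fell and 10 did not pass the test. The share called, 37.5%, stands beside 32.9% of all genes tested. CASP1 was listed in VC replicate 2 only (-6.25). NLRP3, the best known inflammasome sensor, had log2 signals of -3.78, -4.08 and -3.16 in VC and of -4.89, -5.75 and -6.05 in KO, with no overlap. It fell by 1.89 (standard error 0.38, adjusted p = 0.0225), with an adjusted p between 0.0581 and 0.0673 without VC replicate 1, VC replicate 3, KO replicate 2 or KO replicate 3. NLRP1, another sensor, rose by 1.23 (adjusted p = 0.0141), from -0.08, -0.06 and 0.03 in VC to 0.79, 1.51 and 1.30 in KO. Its adjusted p was 0.0542, 0.0532 and 0.0502 without VC replicate 1, VC replicate 3 and KO replicate 3.

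The adaptor PYCARD had a log2 difference of -0.10 (adjusted p = 0.853), with overlapping libraries. The pore-forming gasdermins GSDMD and GSDME had -0.28 (adjusted p = 0.0619) and 0.18 (adjusted p = 0.345). CASP4, the caspase that senses intracellular lipopolysaccharide, rose by 0.97 (adjusted p = 0.00986). Among the calpain subunits, CAPN1 rose by 0.59 (adjusted p = 0.0176, and 0.0524 to 0.0614 without any one of the VC replicates or KO replicate 3) and CAPN2 had 0.22 (adjusted p = 0.0524). HAX1 (0.85), a partner of the IL-1α precursor, and CASP8 (0.48) were the other genes called, as log2 differences. The list's median was 0.14, and its number of calls was 2 without VC replicate 1, VC replicate 3 or KO replicate 3. Over all genes tested, 1403 of 18610, 1223 of 18626 and 2018 of 18584 were called in these refits. With all libraries it was 6354 of 19306. At an unadjusted p under 0.05 limma gave 7, 7 and 6 of the list's genes in these refits, and 8 with all libraries. Only CASP4 of the 6 called genes had an adjusted p under 0.05 with each library left out.

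The last list holds 26 genes that IL-1 is known to induce in fibroblasts and other cells. Of these, 20 were tested, of which 16 rose, 0 fell and 4 did not pass the test, and at an unadjusted p under 0.05 limma gave 17 higher and 1 lower. Over all genes tested, 13.1% rose and 19.8% fell. Their median log2 difference was 2.16, against -0.13 for all genes tested. The list was written with earlier results of these data known, and its genes also respond to other stimuli. PTGS2, the inducible cyclooxygenase, had log2 signals of -0.43, -0.24 and -0.49 in VC and of 4.49, 5.36 and 4.46 in KO and rose by 5.15 (standard error 0.27, adjusted p = 0.00466). CSF2, encoding GM-CSF, rose by 5.11 (standard error 0.38, adjusted p = 0.00571), from -5.41, -5.35 and -4.51 in VC to 0.28, 0.37 and -0.61 in KO. Both genes were separated by several log2 units between the groups.

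The cytokine gene LIF rose by 3.73 (adjusted p = 0.00553), CSF3, encoding G-CSF, by 2.90 (adjusted p = 0.00963), the adhesion molecule gene ICAM1 by 2.84 (adjusted p = 0.00597) and BIRC3, an NF-kB target that restrains cell death, by 2.81 (adjusted p = 0.00571). The other 10 called genes, with log2 differences from 1.23 to 2.69, were the chemokines CXCL8, CXCL1, CXCL3 and CCL2, the collagenase MMP1, the stromelysin MMP3, and NFKBIA, NFKBIZ, TNFAIP3 and ZC3H12A, which feed back on NF-kB signaling. IL6, a classical IL-1 target named here after its values were seen, had -5.06, -7.32 and -4.87 in VC and -3.73, -5.47 and -6.44 in KO, with overlapping libraries (log2 difference 0.54, adjusted p = 0.692). CXCL2 (1.51, adjusted p = 0.0512), PTGES (-0.42, adjusted p = 0.244) and SOD2 (-0.37, adjusted p = 0.0907) were the other genes tested and not called. CXCL1 and CCL2 each had an adjusted p above 0.05 in 2 of 6 refits with a library dropped (at most 0.055 and 0.059), and the other 14 had none. MMP1 stood at 12.04, the top of the table, in all 3 KO libraries, so no larger rise could have been recorded for it.

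**Figure D3:**
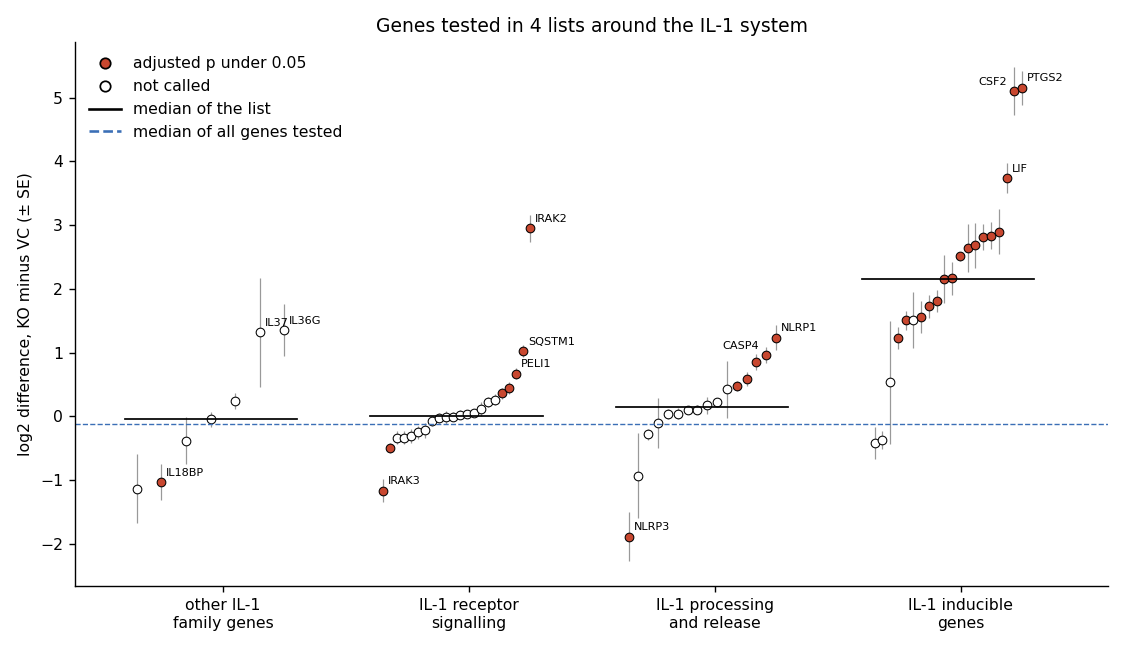
Log2 difference between KO and VC (points, with standard errors from limma) of every gene tested in 4 lists around the IL-1 system, ordered within each list; filled points had an adjusted p under 0.05, solid lines are list medians and the dashed line is the median of all genes tested. The median of the IL-1 inducible genes is 2.16, and those of the other lists lie between -0.046 and 0.14.

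The order of the KO libraries is given here for the IL-1 family genes and the inducible genes. All 5 IL-1 family genes with 6 values were lowest in KO replicate 1, and IL1A and IL1B were 0.46 and 0.48 log2 units below their KO mean there. KO replicate 3 was the lowest KO library for 13 of the 15 called inducible genes that could be ordered, MMP1 being equal in all KO libraries. CXCL8 was 0.84 below its KO mean in KO replicate 3, and CSF2 was 0.63 below. LIF and ICAM1 were lowest in KO replicate 1. Some orders were near ties: IL18 was 0.074 below its KO mean in KO replicate 1, and PTGS2 deviated by -0.282 in KO replicate 1 and by -0.305 in KO replicate 3. On the first principal component KO replicate 1 (20.8) lay nearer to the VC libraries than KO replicates 3 (48.9) and 2 (73.8). The share of all genes lowest in each KO library was not computed, so nothing is read from these counts. The order of 3 libraries is a description, and genes within a library are not independent of each other.

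**Figure D4:**
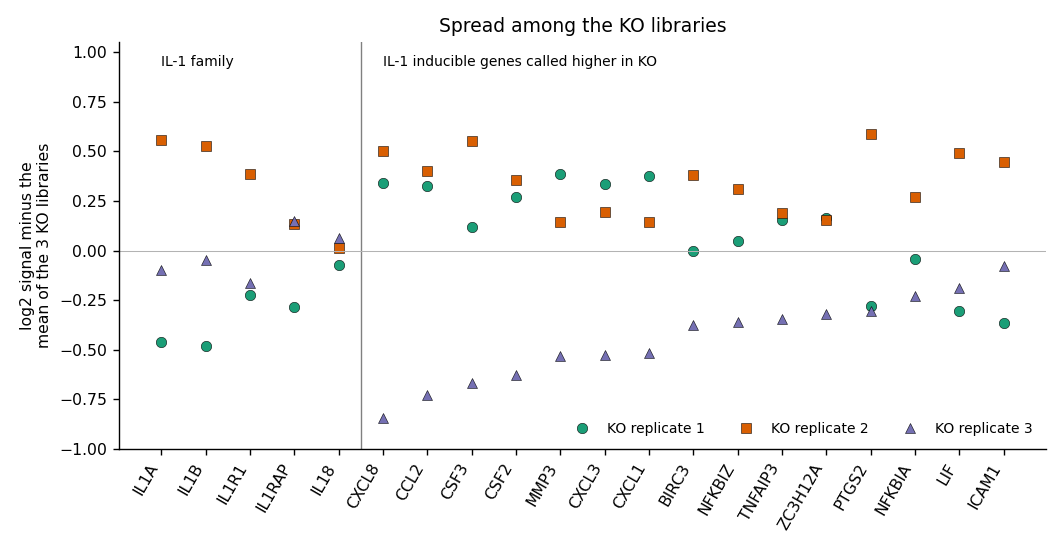
Log2 signal of each KO library minus the mean of the 3 KO libraries, for the 5 IL-1 family genes with 6 values (left of the line) and the 15 IL-1 inducible genes called higher in KO that differ between KO libraries (right of the line). KO replicate 1 (circles) is lowest for all 5 IL-1 family genes, and KO replicate 3 (triangles) is lowest for 13 of the 15 inducible genes.

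The genes whose profiles over the 6 libraries lay nearest to IL1B and IL1A were found by the root mean square (RMS) difference of the deviations from each gene's own mean, among 17697 genes. For IL1A these were GDF15, a stress-induced cytokine (RMS difference 0.21 log2 units), DDIT3, encoding the stress factor CHOP (0.24), and TAS2R31, a bitter taste receptor gene (0.25). For IL1B they were PTGS2 (0.39), CSF2 (0.55) and IL1A itself (0.55). IL1B ranked 19 among the genes nearest to IL1A. GDF15 had log2 signals of -0.64, -1.38 and -1.15 in VC and of 2.68, 3.79 and 3.25 in KO, with the KO libraries in the same order as for IL1A. The measure is dominated by the size of the difference between KO and VC and is a description of 6 libraries.

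Markers of cell types known for IL-1 were examined in the same libraries. Of the markers tested, 33.3% of the myeloid, 50% of the epithelial, 0% of the endothelial and 62.5% of the osteoblast lineage list were called, beside 32.9% of all genes tested. Of 10 myeloid markers, 6 were tested and 2 rose, CD68 by 1.66 (adjusted p = 0.00963) and CSF1R by 2.16 (adjusted p = 0.00571). CSF1R was low in both groups, with log2 signals of -5.27, -4.98 and -4.93 in VC and of -3.01, -2.68 and -3.02 in KO. In the summed linear signals an empty cell adds nothing, and the genes with the largest signal set the sum. For the 10 markers it was 22.1 to 23.0 in VC and 52.5 to 88.4 in KO. Without CD68, a lysosomal gene left out after its values were seen, it was 0.196 to 0.565 in VC and 0.232 to 0.328 in KO. The defining leukocyte marker PTPRC had -4.41, -4.78 and -4.66 in VC and -4.35, -5.93 and -7.12 in KO, CD14 had a value in KO replicate 1 alone among the KO libraries (-6.56), and TYROBP, AIF1 and CD163 had none in KO. Of 6 epithelial markers tested, KRT8 rose and EPCAM and CLDN4 fell, CLDN4 from a mean log2 signal of -2.66 in VC to -4.55 in KO. Not called were KRT18 (log2 difference -0.26, adjusted p = 0.0853), KRT19 (1.01, adjusted p = 0.471) and ESRP1 (3.23, adjusted p = 0.0854, no value in VC replicate 3). The summed signal of the 10 listed was 577 to 640 in VC and 553 to 609 in KO. Its largest terms were KRT18 (mean log2 signal 9.01 in VC and 8.75 in KO) and KRT8 (6.61 and 7.20). KRT14 was empty in every library. KRT5 had -5.34, -5.86 and -6.00 in VC and no value in KO. CDH1 and TP63 had a value in VC replicate 2 only (-8.04 and -7.56). None of 7 endothelial markers tested passed limma's test (2 had an unadjusted p under 0.05). The summed signal of all 8 was 1.39 to 2.09 in VC and 2.37 to 2.97 in KO. Its largest term was EGFL7 (mean log2 signal 0.59 in VC and 1.15 in KO). Of 8 osteoblast lineage markers tested, COL1A1, ALPL, SPARC and SPP1 rose and COL1A2 fell, and RUNX2 had a log2 signal between 1.30 and 1.69 in every library. COL1A2 was low in both groups, with a mean log2 signal of -4.81 in VC and -5.62 in KO. The summed signal of the 10 listed was 1390 to 1570 in VC and 1690 to 2100 in KO. Its largest term was VIM (mean log2 signal 10.44 in VC and 10.82 in KO), which was not called (adjusted p = 0.0667). With single libraries dropped, SPP1 of the 5 osteoblast lineage markers called, and CD68 and CSF1R, held an adjusted p under 0.05 in each refit. The highest adjusted p was 0.0994 for COL1A1, 0.0728 for ALPL, 0.076 for SPARC, 0.0571 for COL1A2, 0.06 for EPCAM, 0.0509 for KRT8 and 0.0557 for CLDN4, without VC replicate 3 for COL1A1, KRT8 and CLDN4, without VC replicate 1 for ALPL, SPARC and EPCAM and without KO replicate 3 for COL1A2. BGLAP had values in KO replicates 1 and 2 (-2.84 and -2.91) and in no other library, and IBSP had none. What these markers contribute to the IL-1 values was not tested.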

How the data were processed

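The authors made the deposited log2 signals from RNA-seq reads, and the table holds 1 column per library. The submitters' processing notes name CASAVA, STAR, Partek and build GRCh38.p13, and the methods name CLC Genomics and Partek Genomics Suite; the linear unit, annotation and filters are not given in the sources used here. The sorted values are nearly identical between libraries, which is what quantile normalization leaves, so read depth is unknown and no counting error was computed. Columns were matched to VC and KO by their labels.

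The 9 genes and all gene lists were chosen with earlier results of these data known. A gene needed 2 values in VC and 2 in KO to be tested, which was done in R 4.3.3 with limma 3.58.1 (empirical Bayes without trend, two-sided), and p-values were adjusted over all 19306 by the Benjamini-Hochberg method, with 0.05 as the threshold. The paper calls the libraries biological replicates, and its methods describe independent RNA samples from clonal cells. The p-values measure the spread between these libraries, which is not known to include a spread between clones. On simulated data the procedure was tested with planted changes, which were larger than most differences called in the signaling and processing lists. Noise was drawn independently for each gene. The simulation therefore does not show how the procedure handles smaller differences or shifts that genes share. Named genes are the 9 genes, every other IL-1 family gene, the core signaling and processing genes, called genes with a log2 difference of at least 1 in these 2 lists, the 6 largest called inducible genes, the 3 nearest profiles of IL1A and IL1B (the rule also asked for the gene of the 9 with the largest fall, but none with 6 values was lower in KO) and chromosome 2 neighbours, ordered by a RefSeq table (GRCh38.p14) from which no gene coordinates are given. Others are named to complete a count.

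Alternatives were median-centred libraries, 1 added to the linear signal, genes in the upper 50% of mean signal, genes with 6 values, empty cells at the lowest value, trend and robust moderation, a replicate block, and each library left out in turn.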

Additional observations from a re-analysis of the deposited data

How the results depend on the processing

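The log2 difference with 1 added to the linear signal was 3.40 for IL1A, 3.44 for IL1B and 0.50 for IL18, since low values are pulled together. The difference IL1A minus IL1B changed between VC and KO by -1.07, and by -0.042 with 1 added, an alternative chosen after the data were seen. With single libraries left out the log2 difference between KO and VC lay between 4.23 and 4.74 for IL1A, 5.32 and 5.82 for IL1B, 1.09 and 1.43 for IL18, 0.40 and 0.62 for IL1RAP, 0.15 and 0.46 for IL1R1 and -1.15 and 0.53 for IL33, whose sign turned without VC replicate 1 (0.53) and without KO replicate 3 (0.17). IL1RN, IL1R2 and IL1RL1 lacked 2 values in a group and gave no difference.

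Among signaling genes 7 were called, and 12 with 1 added, 11 with trend and robust moderation and 3 with the replicate block. Processing genes numbered 6, and 2 with the block. Other IL-1 family genes numbered 1, and 0 with the block (3 at an unadjusted p under 0.05) and 0 in the upper 50% of mean signal, where 1 could be tested (0 at an unadjusted p under 0.05). Inducible genes numbered 16, and 10 in the upper 50% of mean signal, where 10 could be tested and SOD2 was called lower. With single libraries left out the counts were 3 to 10, 2 to 7, 0 to 1 and 14 to 18. The 18 inducible genes called without KO replicate 1 were 16 higher and 2 lower in KO. With trend and robust moderation 17 were called higher and 1 lower. Over all genes, 6354 of the 19306 tested were called, 7773 with 1 added and 7923 with trend and robust moderation. In the upper 50% of mean signal, 5702 of the 9653 genes tested were called. With empty cells at the lowest value 3524 were called, with the block 1740 and with a library left out 1223 to 8669. The cause of these changes was not tested. Equal replicate numbers did not deviate together (Pearson's r between -0.00736 and 0.0226 over 17698 genes, which are not independent). For unequal numbers r was between -0.0304 and 0.0314. Deviations from a mean of 3 libraries do not settle whether the libraries were prepared in pairs. The read depth limits what an empty cell means.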
